A study of Mus musculus with 8 samples.

Results

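The cytosolic heat shock proteins are the HSP90, HSP70, HSP110, HSP40 and small heat shock chaperones outside the secretory pathway and the mitochondria. In all, 10 genes were followed, namely Hsp90aa1, Hsp90ab1, Hspa1a, Hspa1b, Hspa8, Hsph1, Dnajb1, Hspb1, Hspb8 and Cryab. They were found by symbol in a table of 23597 genes, and all 10 of 10 had a row. Messenger RNA was measured in mouse corneas of 2 groups on day 14 of scopolamine injection, which blocks muscarinic receptors and is used to bring about dry eye. The ICI group (4 libraries) came from dry eye mice that also received ICI 118551, a blocker of the β2-adrenergic receptor, and the Scop group (4 libraries) from dry eye mice without it. Both groups thus carried scopolamine, and no cornea without dry eye was analysed here. Each library was a pool of 4 corneas, and the sources used here do not give strain, age, sex, dose or route. How mice were divided over the pools is unknown, so a p-value measures the spread between these pools and nothing more.

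Heat shock proteins bind unfolded or partly folded proteins. HSP70 takes up exposed stretches of a client and releases them in a cycle of ATP hydrolysis that HSP40 proteins start and HSP110 proteins reset, and HSP90 acts later, on clients such as kinases and steroid receptors. Small heat shock proteins hold unfolding proteins without using ATP. Heat shock factor 1, encoded by Hsf1, binds inverted repeats of GAA upstream of many of these genes and raises their transcription under proteotoxic stress. Some members are largely constitutive (Hsp90ab1, Hspa8), and others are strongly inducible (Hspa1a, Hspa1b, Hsph1, Dnajb1). In the cornea, these proteins are known from the epithelium, which meets heat, light and drying directly.

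Promoter windows, from 250 bases before to 50 bases after a RefSeq transcription start (build GRCm38.p6), were given for 6 of the 10 members. The 4 shown are the near-identical copies Hspa1a and Hspa1b, whose reads are hard to tell apart, Hspb8, which had the smallest p of the members, and Hsph1, which held the longest match. They are written 5′ to 3′ on the gene's strand, and capitals mark matches to the heat shock element letters GAANNTTC, TTCNNGAA and GAANNTTCNNGAA. The first and second of these read the same on both strands and overlap inside the third, which was searched on both strands.
Hspa1a, minus strand, chr17:34972107-34972406: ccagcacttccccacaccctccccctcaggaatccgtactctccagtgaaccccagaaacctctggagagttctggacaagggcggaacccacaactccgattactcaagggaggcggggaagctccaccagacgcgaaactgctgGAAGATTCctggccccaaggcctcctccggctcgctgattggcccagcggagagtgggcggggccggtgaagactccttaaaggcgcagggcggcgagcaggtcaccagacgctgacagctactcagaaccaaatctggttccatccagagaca
Hspa1b, minus strand, chr17:34959189-34959488: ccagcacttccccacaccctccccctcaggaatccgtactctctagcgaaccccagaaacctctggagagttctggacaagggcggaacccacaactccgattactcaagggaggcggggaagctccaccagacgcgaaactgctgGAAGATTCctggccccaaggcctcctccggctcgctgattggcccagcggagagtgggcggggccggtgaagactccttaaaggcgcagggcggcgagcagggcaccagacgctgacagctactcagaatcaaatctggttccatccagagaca
Hspb8, minus strand, chr5:116422815-116423114: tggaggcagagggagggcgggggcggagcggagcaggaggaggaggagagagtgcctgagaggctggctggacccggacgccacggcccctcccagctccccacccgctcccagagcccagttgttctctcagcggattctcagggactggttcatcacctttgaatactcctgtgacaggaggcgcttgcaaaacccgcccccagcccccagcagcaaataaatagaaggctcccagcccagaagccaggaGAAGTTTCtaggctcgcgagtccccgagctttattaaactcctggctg
Hsph1, minus strand, chr5:149636287-149636586: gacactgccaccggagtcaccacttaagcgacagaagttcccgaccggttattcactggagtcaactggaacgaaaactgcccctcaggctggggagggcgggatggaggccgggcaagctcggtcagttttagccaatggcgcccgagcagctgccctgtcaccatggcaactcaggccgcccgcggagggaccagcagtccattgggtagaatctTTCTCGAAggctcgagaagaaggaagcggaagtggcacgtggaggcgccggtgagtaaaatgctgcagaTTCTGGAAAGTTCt

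The windows of Hspa1a and Hspa1b shared 296 of 300 bases. Counted from 1 at the 5′ end, with the Hspa1a base first, they differed by C44T, T47C, T249G and C276T, none of them in the capitals. GAANNTTC was present for 5 of the 6 members (Hspa1a, Hspa1b, Hsph1, Hspb1 and Hspb8) and for 7.86% of all 32851 promoter windows. Members were counted by gene, with 8 windows for the 6. The match lay past the transcription start in Hspb8 (2 to 9 bases) and Hsph1 (41 to 48 bases in the window shown). In Hspa1a, Hspa1b and Hspb1 it lay before the start. TTCNNGAA and GAANNTTCNNGAA were each present for 1 of 6, Hsph1, against 8.52% and 0.603% of all windows. Neither window of Dnajb1 held any of the 3, which says only that these letters are not there.

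All 10 members were abundant enough to be tested. Their levels, which FPKM puts on a scale per gene length, fell into a clear order at the high end and ties further down. Hspb1, which encodes the small heat shock protein HSP25 in mouse, was highest at 657 ± 97.4 FPKM (mean ± SD over all 8 libraries, as for the other levels in this order, FPKM being fragments scaled by a gene's length and its library's total). Hsp90ab1 followed at 439 ± 15.9, Hspa8 at 248 ± 46.1 and Hspa1b at 186 ± 15.4 FPKM. Each of these 4 stood above the next gene in 8 of 8 libraries, although the ranges of Hspa8 and Hspa1b overlapped. Hsp90aa1 (64.8 ± 8.43), Cryab (59.7 ± 8.20), Dnajb1 (54.4 ± 4.54) and Hspa1a (52.2 ± 13.8 FPKM) had overlapping ranges, and neighbours among them did not differ beyond their spread, although Cryab was above Dnajb1 in 7 of 8 libraries. Hsph1 (7.60 ± 2.07) and Hspb8 (5.64 ± 1.52 FPKM) were lowest, again with overlapping ranges. Hspb8 therefore rested on the fewest fragments, between 253 and 557 per library, where counting error alone is 6.29% at the lowest. No other member had fewer than 1165.

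The libraries differed in ways that bear on several members. Fragments counted per library lay between 34466620 and 40014861. The 8 keratocyte markers summed to 1584 to 2175 FPKM in ICI, against 566 in Scop replicate 3 and 1585 to 1892 in the other Scop libraries. Scop replicate 3 was thus low in keratocyte RNA. The 7 markers of stressed squamous epithelium summed to 2439 to 2691 FPKM in ICI, against 3859 in Scop replicate 3 and 2358 to 2750 in the other Scop libraries. Krt6a and Krt6b carry that sum. Over the 6 of these markers that were tested, 5 had negative log2 fold changes, and the median was -0.90. Of them, 3 had an unadjusted p under 0.05, all lower in ICI, against 7.46% of all tested genes lower, with 0 past the adjusted threshold. Among the 3, the keratin gene Krt16, was at 5.87, 4.93, 4.37 and 14.4 FPKM in ICI and at 4.73, 14.3, 77.1 and 46.7 in Scop, so Scop replicate 4 was high as well as replicate 3. Of the keratocyte markers, 7 of 7 tested had positive values (median 0.53), 0 of them at an unadjusted p under 0.05. The immediate early genes, which cells switch on within minutes of a stimulus, summed to 977, 683, 558 and 367 FPKM in ICI replicates 1 to 4, against 349.6 to 438 in Scop. Of these genes 7 of 12 tested were higher in ICI at an unadjusted p under 0.05, against 4.56% of all tested genes, and 0 passed the adjusted threshold. The part of these differences between the libraries in the values of the 10 members was not tested. The 3 loci that collect reads of ribosomal RNA summed to 3826 to 3995 FPKM in ICI, against 717, 954, 1177 and 5113 in Scop replicates 1 to 4. Corneal epithelial markers were abundant everywhere (34958 to 37166 FPKM in ICI and 34957 to 39777 in Scop). Fewer cells of a type and less RNA per cell cannot be told apart in such pools.

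The comparison of ICI with Scop asks how heat shock transcripts in dry eye corneas relate to β2-adrenergic blockade. None of the 10 members passed limma's test adjusted over all 12100 genes tested (0% higher and 0% lower among all genes). Hspb8 was lower and Cryab higher in ICI, each with all 4 ICI values on one side of all 4 Scop values. Hsp90aa1, Hspa8 and Hspa1a were lower with overlapping groups. At an unadjusted p under 0.05 there were 1 of 10 members higher and 4 lower in ICI, against 4.56% and 7.46% of all tested genes (552 and 903). Quantile normalisation brought those counts over all genes to 728 and 717, and limma-voom on recovered fragments gave 519 and 930, with 0 past the adjusted threshold. Groups without overlap were seen for 2 of 10 members, 1 in each direction, against 6.98% of all tested genes, or 2.63% higher and 4.36% lower. Taken in both directions, 5 of 10 members and 12% of all genes had an unadjusted p under 0.05. Of the members 8 had negative and 2 positive log2 fold changes, with a median of -0.23, against 6709 of 12100 negative and a median of -0.02 over all genes.

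**Figure D1:**
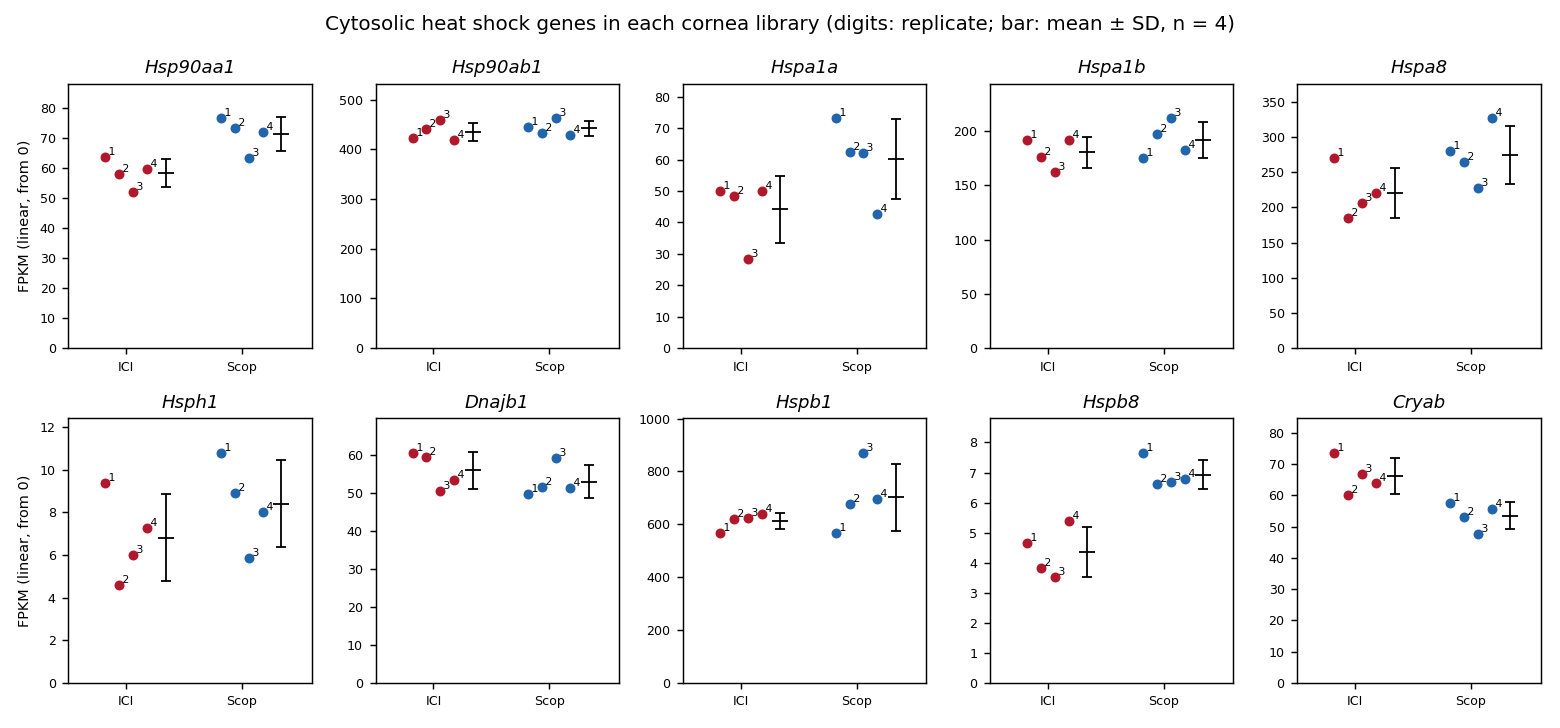
FPKM of the 10 cytosolic heat shock genes in each library, ICI left and Scop right, with the replicate number beside each point and the mean ± SD (n = 4) as a bar. The Hspb8 points of ICI (3.54 to 5.38) all lie below those of Scop (6.61 to 7.65), those of Cryab all above (60.03 to 73.5 against 47.7 to 57.5), and the other 8 genes overlap.

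HSP90 is made from a pair of genes. Hsp90aa1, the stress-inducible form (chromosome 12, 110691036 to 110696395 of GRCm38, minus strand), stood at 63.4, 58.0, 52.1 and 59.6 FPKM in ICI replicates 1 to 4 and at 76.5, 73.1, 63.2 and 72.0 in Scop replicates 1 to 4. The groups met only at ICI replicate 1 and Scop replicate 3. The mean was 58.3 ± 4.72 against 71.2 ± 5.67 FPKM (SD, n = 4 each), a log2 fold change of -0.28 (SE 0.07) with limma's adjusted p = 0.214 and an unadjusted p of 0.00321. With 1 library left out the value lay between -0.34 (Scop replicate 3, the library low in keratocyte RNA) and -0.23 (ICI replicate 3). Hsp90ab1, the constitutive form (chromosome 17, 45567778 to 45573261, minus strand), was at 422, 442, 459 and 420 FPKM in ICI and at 444, 432, 463 and 430 in Scop. These 8 values were the most even of the members, with a coefficient of variation of 3.63%. Its log2 fold change was -0.02 with a 95% interval of -0.13 to 0.08, and with 1 library left out it lay between -0.05 (ICI replicate 3) and -4.2e-05 (Scop replicate 3).

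Hsp90aa1 made up 13.1%, 11.6%, 10.2% and 12.4% of the summed FPKM of the pair in ICI, against 14.7%, 14.5%, 12.01% and 14.4% in Scop. That share does not depend on the scaling of a library. It overlapped between the groups through Scop replicate 3, and its mean was 11.8 ± 1.24% against 13.9 ± 1.255%. Of the 100-base stretches of the longest Hsp90aa1 transcript, 47.5% also occur in transcripts of other genes, chiefly the annotated locus Gm12346. The treatment of reads that fit more than one place is not stated, so the absolute level is uncertain. For Hsp90ab1 that share was 0%.

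Among the HSP70 genes, Hspa8, which encodes the constitutive HSC70 (chromosome 9, 40801276 to 40805202, plus strand), was at 269.7, 185, 206 and 221 FPKM in ICI and 279.9, 265, 227 and 327 in Scop. ICI replicate 1 lay within the Scop values, and the other 3 ICI libraries lay below all of them. The mean was 220.5 ± 36.0 against 275 ± 41.2 FPKM, with a log2 fold change of -0.32 (SE 0.13) and an adjusted p of 0.362 by limma. Hspa8 also holds small nucleolar RNAs (Snord14c, Snord14d and Snord14e) within its annotated exons, and 32.1% of its 100-base stretches occur in other transcripts.

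Hspa1a and Hspa1b, the inducible HSP70 genes, are intronless neighbours on the minus strand of chromosome 17 (34969359 to 34972156 and 34956429 to 34959238). The gene lengths behind the deposited values, 2798 and 2810 bases, are the full lengths of these single exons. Hspa1a was at 50.04, 48.4, 28.3 and 49.9 FPKM in ICI and at 73.2, 62.5, 62.2 and 42.8 in Scop. Scop replicate 4 lay below 3 of the 4 ICI libraries, and ICI replicate 3 stood far below the rest. The mean was 44.2 ± 10.6 against 60.2 ± 12.7 FPKM, with a log2 fold change of -0.45 (SE 0.20) and limma's adjusted p = 0.412. Without ICI replicate 3 the log2 fold change was -0.25, and its unadjusted p of 0.0490 became 0.126.

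Hspa1b was at 192, 176, 163 and 191 FPKM in ICI and at 175, 197, 212 and 183 in Scop. The groups overlapped in part, with ICI replicate 3 below every Scop value and Scop replicates 2 and 3 above every ICI value. Its log2 fold change was -0.09, with a 95% interval of -0.25 to 0.08, and it was -0.04 with either ICI replicate 3 or Scop replicate 3 left out. Of the 100-base stretches of their transcripts, 47.1% of Hspa1a and 49.9% of Hspa1b occur in the other copy, so their separate values are uncertain. Gm20481, an annotated gene on the opposite strand, also shares 564 exonic bases with Hspa1a, and whether counting used strand is not given. Summed over both copies, the level was 242, 224, 191 and 241 FPKM in ICI against 248, 259.7, 274 and 226 in Scop. In the sum the groups overlapped as well, with means of 225 ± 24.0 and 252 ± 20.5 FPKM.

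Hspa1a gave 20.7%, 21.6%, 14.8% and 20.7% of the summed level in ICI and 29.5%, 24.1%, 22.7% and 19.0% in Scop. The lowest share was that of ICI replicate 3 and the highest that of Scop replicate 1. The inducible pair over Hspa8 had a ratio of 0.898, 1.21, 0.924 and 1.09 in ICI, against 0.886, 0.981, 1.21 and 0.691 in Scop. This ratio overlapped throughout, at 1.03 ± 0.148 and 0.941 ± 0.214.

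**Figure D2:**
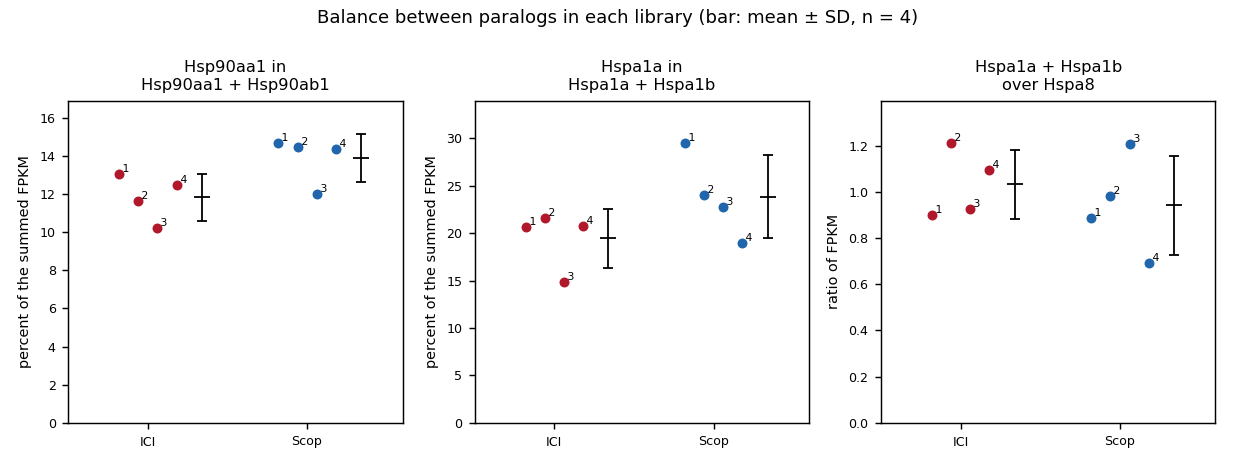
Share of Hsp90aa1 in the HSP90 pair and of Hspa1a in the inducible HSP70 pair (percent of the summed FPKM), and ratio of the inducible HSP70 pair to Hspa8, for each library with ICI left and Scop right. Bars are the mean ± SD (n = 4), and the groups overlap in all 3 panels.

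Of the genes that serve the HSP70 cycle, 1 had a negative and 1 a positive value. Hsph1, the HSP110 nucleotide exchange factor (chromosome 5, 149616843 to 149636498, minus strand), was at 9.37, 4.59, 5.98 and 7.27 FPKM in ICI and 10.8, 8.91, 5.87 and 8.01 in Scop. Its coefficient of variation over the 8 libraries, 27.2%, was the highest of the members. The groups overlapped, with a log2 fold change of -0.28 and a 95% interval of -0.72 to 0.17. Leaving out 1 library at a time moved it between -0.43 (ICI replicate 1 left out) and -0.13 (ICI replicate 2 left out), with -0.16 and -0.42 when Scop replicate 1 or 3 was omitted. Dnajb1, the HSP40 that starts the cycle (chromosome 8, 83608175 to 83612653, plus strand), was at 60.5, 59.4, 50.4 and 53.5 FPKM in ICI and 49.6, 51.6, 59.3 and 51.2 in Scop. Its log2 fold change of 0.08 had a 95% interval of -0.09 to 0.25. With 1 library left out it ran from 0.04 (ICI replicate 1) to 0.13 (Scop replicate 3), and it was 0.05 when ICI replicate 2 or Scop replicate 1 was omitted and 0.13 when ICI replicate 3 was. Neither gene shared a 100-base stretch with another annotated transcript.

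The small heat shock genes had values in both directions. Hspb8 encodes HSP22, which works with the co-chaperone BAG3 in selective autophagy (chromosome 5, 116408491 to 116422864, minus strand). It was at 4.66, 3.84, 3.54 and 5.38 FPKM in ICI and at 7.65, 6.61, 6.67 and 6.78 in Scop, so every ICI value lay below every Scop value. The fragments behind them numbered 333, 276, 253 and 368 in ICI and 557, 473, 418 and 444 in Scop. The mean was 4.35 ± 0.831 against 6.93 ± 0.488 FPKM, a ratio of 0.628. On the log2(FPKM + 1) scale, which understates changes of low genes, the difference was -0.58 (SE 0.11) with an unadjusted p of 2.80e-04. This p ranked 22 of 12100, and limma's adjusted p = 0.154 did not pass. Leaving out 1 library at a time gave values between -0.67 and -0.50. None of its 100-base stretches occurs in another annotated transcript. BAG3's gene, Bag3, was at 34.9, 34.0, 38.2 and 40.8 FPKM in ICI and 36.4, 42.1, 41.2 and 38.7 in Scop, with overlap (log2 fold change -0.10, SE 0.07).

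Cryab encodes αB-crystallin, the small heat shock protein best known from the lens, and lies on the plus strand of chromosome 9 (50745951 to 50756636). It was at 73.5, 60.0, 66.8 and 63.8 FPKM in ICI and at 57.5, 52.9, 47.7 and 55.7 in Scop. Every ICI value lay above every Scop value, the opposite order to Hspb8. The mean was 66.1 ± 5.71 against 53.4 ± 4.27 FPKM, a ratio of 1.24, and the log2 fold change was 0.30 (SE 0.08) with limma's adjusted p = 0.204 and an unadjusted p of 0.00250. Scop replicate 3, with the least keratocyte RNA, had the lowest value, and without it the log2 fold change was 0.25. The part of keratocyte RNA in the Cryab values was not tested. Lens RNA was near 0: the 12 lens markers summed to 4.01 to 5.59 FPKM in ICI and 4.35 to 5.24 in Scop. Cryaa, the αA-crystallin partner in the lens, did not exceed 0.314 FPKM. Hspb2, the small heat shock gene on the opposite strand, shares 252 annotated exonic bases with Cryab. It was at 1.03, 0.752, 1.148 and 0.379 FPKM in ICI and 0.683, 0.484, 0.379 and 0.231 in Scop (log2 fold change 0.33, SE 0.15), and reads of the shared bases may not be told apart.

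Hspb1 (chromosome 5, 135887919 to 135889563, plus strand) was at 567, 621, 623 and 638 FPKM in ICI and at 565, 677, 870.1 and 694 in Scop. The highest value was that of Scop replicate 3, the library with the most squamous stress markers, and the lowest that of Scop replicate 1. Scop replicate 3 also had the highest sums of conjunctival markers (1864 FPKM, against 1117 to 1288 elsewhere) and corneal epithelial markers (39777, against 34957 to 37166). The log2 fold change was -0.18, with a 95% interval of -0.42 to 0.06, and it was -0.07 without Scop replicate 3 and -0.28 with Scop replicate 1 left out. The annotated locus Hsp25-ps1 holds 42.7% of the 100-base stretches of Hspb1. The part of squamous stress, or of conjunctival or corneal epithelial RNA, in the Hspb1 values was not tested.

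**Figure D3:**
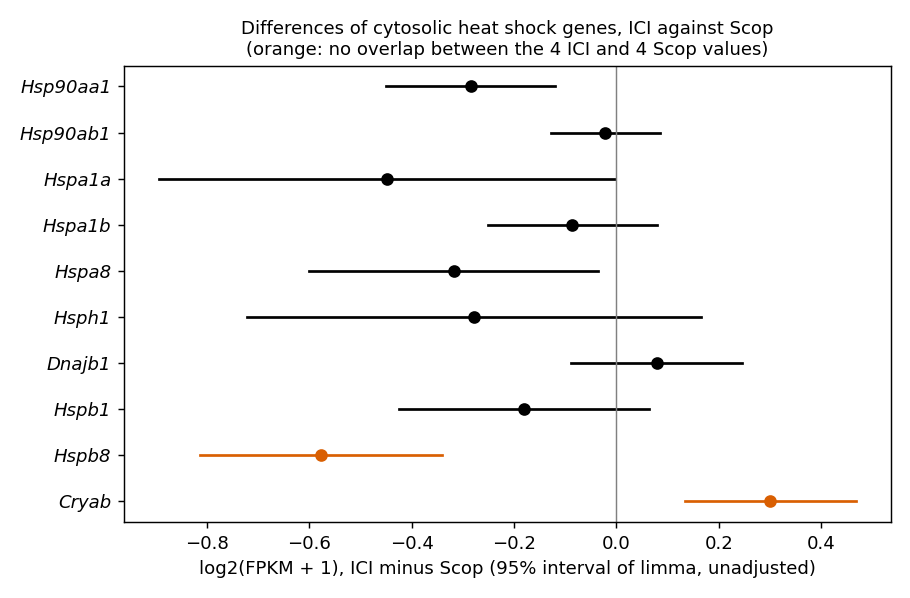
Difference in log2(FPKM + 1), ICI minus Scop, for each of the 10 genes, with limma's unadjusted 95% interval as a line. Hspb8 and Cryab (orange) had groups that did not overlap, and the intervals of Hsp90ab1, Hspa1b, Hsph1, Dnajb1 and Hspb1 cross 0.

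Summed over the 10 members, the level was 1713, 1658, 1658 and 1709 FPKM in ICI and 1739, 1826, 2017 and 1870.4 in Scop. All 4 ICI sums lay below all 4 Scop sums (highest ICI 1713, lowest Scop 1739 FPKM), a separation not counted over other sets of genes. Hspb1 and Hsp90ab1 make up most of each sum, and each of these genes by itself overlapped between the groups. The highest sum was that of Scop replicate 3. Within ICI, replicate 1 held the highest value for 7 of the 10 members (Hsp90aa1, Hspa1a, Hspa1b, Hspa8, Hsph1, Dnajb1 and Cryab). Within Scop, replicate 1 was highest for 5 and replicate 3 for 4. The same count over all genes was not made. ICI replicate 1 was also the library with the highest sum of the immediate early genes (977 FPKM, against 367 to 683 in the other ICI libraries). The 5 corneal endothelial markers summed to 150.5 FPKM there, against 60.9 to 62.3 in the other ICI libraries and 39.2 to 98.8 in Scop. The part of the immediate early response or of endothelial RNA in the members' values was not tested.

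By Pearson's correlation of log2(FPKM + 1) over the 8 libraries, taken as a description, the genes with patterns most like Hsp90aa1 were Rpe (0.99), Zfr (0.98) and Cluh (0.97). For Hspa1b they were Ncbp2as2 (0.98), Gng5 (0.96) and S100a13 (0.95). These were the highest among the tested genes, leaving out predicted gene models and the members themselves. Rpe encodes an epimerase of the pentose phosphate pathway, Cluh an RNA-binding protein of mitochondrial messenger RNAs, and Gng5 a G protein γ subunit.

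The heat shock factor genes came next. Hsf1 was at 9.46, 8.07, 8.51 and 8.89 FPKM in ICI and at 10.2, 9.87, 10.1 and 10.99 in Scop. The groups did not overlap (4.36% of all tested genes were lower without overlap), with a log2 fold change of -0.21 (SE 0.06) and limma's adjusted p = 0.268. Hsbp1, a small protein gene that binds HSF1 trimers, had a log2 fold change of 0.02 (SE 0.04). Hsf2 and Hsf4 were below the filter of a mean of 0.5 FPKM, with at most 0.489 and 0.490 FPKM in any library.

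All 17 tested HSP90 co-chaperone genes had negative values (median -0.14), and 0 passed the adjusted test. Over all tested genes 6709 of 12100 values were negative, which is the background for this list and those that follow. Genes of a list were measured in the same 8 libraries, so their signs are not independent. At an unadjusted p under 0.05 there were 5 of 17, all lower in ICI, against 7.46% of all tested genes. Fkbp5, an immunophilin that steroid receptors induce, had the smallest p of them (log2 fold change -1.01, SE 0.21, adjusted p = 0.166 by limma), with 38.8, 28.7, 36.1 and 42.2 FPKM in ICI against 57.0, 57.8, 119 and 74.0 in Scop, where replicate 3 was the highest. Fkbp4, its relative that promotes receptor activity, was at -0.17 (SE 0.06), the cyclophilin gene Ppid at -0.36 (SE 0.11) and the myosin chaperone gene Unc45a at -0.19 (SE 0.06).

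Of 19 HSP70 co-chaperone genes, 14 had negative values (median -0.07), and 2 of 19 were at an unadjusted p under 0.05, both lower, against 7.46% of all tested genes lower, a share near that of the list. These were the nucleotide exchange factor genes Hspbp1 (-0.23, SE 0.06) and Bag2 (-0.13, SE 0.04), both without overlap between the groups (4.36% of all tested genes were lower without overlap) and both short of the adjusted threshold (limma's adjusted p 0.216 and 0.291). Dnaja1, an HSP40, and Bag1, another exchange factor, were at -0.15 (SE 0.09) and -0.10 (SE 0.06). A list of other HSP70, HSP110 and small heat shock genes had 9 tested genes, 4 with positive and 5 with negative values. Of these, 1 in each direction was at an unadjusted p under 0.05 (4.56% of all tested genes higher and 7.46% lower). In this list, 0 passed the adjusted threshold. Its negative values included Serpinh1 (-0.25, SE 0.23) and Hspa13 (-0.07, SE 0.10), whose proteins lie in the endoplasmic reticulum and not the cytosol. Hspa2, an HSP70 best known from the testis, was low and higher in ICI, at 1.71, 1.66, 1.89 and 1.98 against 1.45, 1.39, 1.29 and 1.40 FPKM in Scop. The groups did not overlap (log2 fold change 0.24, SE 0.07, limma's adjusted p = 0.279), where 2.63% of all tested genes were higher without overlap. Hspa4, an HSP110 relative of Hsph1, was at -0.20 (SE 0.07), and its relative Hspa4l at -0.13 (SE 0.08).

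The chaperonin TRiC, which folds actin and tubulin, and its partner prefoldin had 6 positive and 8 negative values over 14 tested genes (median -0.03). Cct3 was at -0.18 (SE 0.07) and Pfdn5 at 0.16 (SE 0.07), the 2 genes of the list at an unadjusted p under 0.05, 1 in each direction (4.56% of all tested genes were higher and 7.46% lower), and neither passed after adjustment. Pfdn4 (0.16, SE 0.09) and Vbp1 (0.08, SE 0.05) came next. Mitochondrial chaperone genes had 8 of 8 negative values (median -0.13), with 1, Hspe1, lower at an unadjusted p under 0.05, near the 7.46% of all tested genes, and 0 past the adjusted threshold. They included Hspe1 and Hspd1, which encode HSP10 and HSP60 (-0.23, SE 0.09, and -0.22, SE 0.10), the nucleotide exchange factor gene Grpel2 (-0.15, SE 0.07) and the disaggregase gene Clpb (-0.16, SE 0.10). The endoplasmic reticulum chaperones had 12 of 12 negative values (median -0.32), with 10 lower at an unadjusted p under 0.05, against the same 7.46%, and 0 past the adjusted threshold. Calr was at -0.34 (SE 0.07), Creld2 at -0.38 (SE 0.10), Sdf2l1 at -0.38 (SE 0.10) and Pdia6 at -0.33 (SE 0.10).

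**Figure D4:**
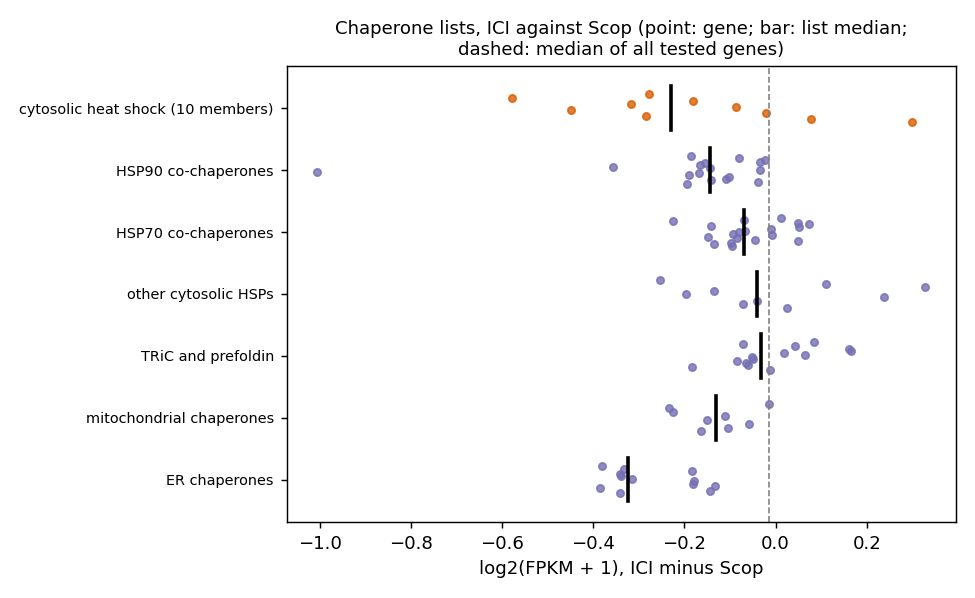
Difference in log2(FPKM + 1), ICI minus Scop, of each tested gene in the cytosolic heat shock group and in 6 chaperone lists, with the list median as a bar and the median of all tested genes (-0.02) as a dashed line. Medians run from -0.32 for the endoplasmic reticulum chaperones to -0.03 for TRiC and prefoldin, with -0.23 for the 10 cytosolic heat shock genes. The row of other cytosolic HSPs also holds Serpinh1 and Hspa13, whose proteins lie in the endoplasmic reticulum.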

How the data were processed

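Libraries of corneal RNA were made with a Vazyme VAHTS kit and sequenced on an Illumina NovaSeq instrument, per the labels' protocols. HISAT2, fastp and HTSeq, with build mm10, are named per the submitters' processing notes. The sources used here do not give versions, annotation or strand setting. All values are FPKM, deposited by the authors in 1 table, with no scaling between samples stated (column sums 434149 to 448239). Columns were matched to samples by title.

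Values of log2(FPKM + 1) were compared two-sided by limma (version 3.58.1, R 4.3.3) using trended empirical Bayes moderation. Genes averaging 0.5 FPKM or more (12100) were tested, with Benjamini-Hochberg adjustment over all of them and a threshold of 0.05. Errors are limma's SE, or the SD over 4 libraries. Scripts were tested on simulated data. Whole fragments were worked back from FPKM steps (99.8% of genes whole within 0.01 from ratios between libraries, the rest from whole gene lengths). The lowest chi-square per degree of freedom between any pair of libraries was 13.1, so none was a duplicate. Recovered fragments served to give depth and for limma-voom, which passed 0 genes. Intervals of counting error cover counting only.

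Positions and promoters are from RefSeq (GRCm38.p6, the same coordinates as mm10). Overlaps and shared stretches are from GENCODE M21. The members and lists were chosen with earlier results of these data known. Of each chaperone list, up to 4 genes with the smallest p are named, and for Hsp90aa1 and Hspa1b the 3 genes of most similar pattern. Bag3 was named outside that rule, after its values were seen. Hspb3 and Hspb11 were not analysed here. Alternatives were other pseudocounts, filters, scalings, eBayes settings and weights, the replicate number as a block, limma-voom and leaving out each library.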

Additional observations from a re-analysis of the deposited data

Results flagged for a closer look

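Of 20 sets of 4 values (10 genes in 2 groups), 2 held a library far from the other 3 by Dixon's test, where about 1 in 20 is flagged by chance. Hspa1a stood at 28.3 FPKM in ICI replicate 3, against 48.4 to 50.04 in the other ICI libraries. Hspb8 stood at 7.65 FPKM in Scop replicate 1, against 6.61 to 6.78 in the other Scop libraries.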

How the results depend on the processing

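Over 19 alternatives, 0 of the 10 members passed the adjusted threshold, and no member's log2 fold change turned its sign. Hspb8, Cryab and Hsp90aa1 had an unadjusted p under 0.05 in all 19, with adjusted p between 0.0902 and 0.352, 0.123 and 0.398, and 0.106 and 0.453. The number of members at that p was 5, and it ran from 3 (without the filter, and without ICI replicate 2 or ICI replicate 3) to 6 (without ICI replicate 1). Over all genes, array weights passed 3 higher and 4 lower, and leaving out 1 library passed 0 to 4 higher and 0 to 2 lower, where 0 passed otherwise. At an unadjusted p under 0.05, genes higher in ICI numbered 862 without a filter and 318 with a filter of 5 FPKM, since other genes are tested. The difference in the ratio of Hsp90aa1 to Hsp90ab1 ran from -0.0354 to -0.0202 with 1 library left out, and that of the inducible pair to Hspa8 from 0.00751 to 0.179. With the replicate number as a block, 0 genes passed, with 643 higher and 869 lower at an unadjusted p under 0.05. Whether the replicate numbers pair the samples is not given. Deviations of same-numbered libraries correlated at 0.287, -0.00927, 0.138 and 0.0769, and 3 of 8 libraries correlated best with their own number, which does not settle it. Depth limits Hspb8 most. Pooling and the 4 libraries per group limit all members.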
